A study of Mus musculus with 12 samples.

Results

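Divergent protein-coding promoter pairs are pairs of genes that lie head to head on opposite strands and are transcribed away from each other, the minus-strand gene to the left and the plus-strand gene to the right. A pair was taken wherever the starts of 2 autosomal protein-coding genes lay within 1000 bp of each other in this arrangement in the RefSeq gene table of mm10 (GRCm38.p6), and its region was both starts plus 3000 bp on each side. The rule found 726 pairs, made of 1443 of the 20259 autosomal protein-coding genes whose strand was known (7.12%), and 9 of these genes belonged to more than 1 pair. The starts were 101 bp apart at the median (quartiles 48 and 238 bp), with 361 pairs at 100 bp or less and 65 at more than 500 bp. The other 18816 genes, called lone starts here, were the comparison, each as its start plus 3000 bp on each side.

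Such pairs often share a single stretch of open, CpG-rich DNA from which both genes are transcribed, and they are known for housekeeping genes of DNA repair, RNA processing and the mitochondrion. H3K36ac, the acetylation of histone H3 at lysine 36, is a mark of active promoters that lies at and just inside the start of the gene. SIRT7 is an NAD+-dependent deacetylase that removes it.

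Peaks of H3K36ac had been called in cells enriched for spermatogonia from 129S1/Sv testes, in 3 WT and 3 Sirt7-/- samples taken at postnatal day 5 (Pnd 5), each from a different mouse, with 50000 cells per sample. The knockout is constitutive, so the somatic cells of the testis lack SIRT7 as well, and the cells were enriched by differential plating. The replicates of each genotype are numbered 2, 3 and 4, and values are given in that order throughout. The lists held 906, 64 and 294 peaks in WT and 2840, 2045 and 2591 in Sirt7-/-. They give no read depth, so a missing peak does not show that the mark was absent, and the number of pairs called moves with the length of the list. No list had a peak within 3000 bp of the Sirt7 start, which therefore checks no label. Of the spermatogonial markers, 4 of 10 (Zbtb16, Gfra1, Dazl and Uchl1) had a promoter peak in a Sirt7-/- sample and 0 of 10 in a WT sample. Of the Sertoli markers 1 of 5 (Sox9) had a peak in a Sirt7-/- sample, and of the Leydig and peritubular markers 0 of 4 and 0 of 2. Of lone starts, 18.6% had a peak in at least 1 Sirt7-/- sample and 4.85% in at least 1 WT sample. A promoter peak is no measure of expression.

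The promoters of 7 pairs that carry the results are shown first: 4 pairs called in nearly all samples, 2 called in every Sirt7-/- but no WT sample, and the pair with peaks on both of its sides. Each line holds 250 bp before and 50 bp after a start of the named gene in RefSeq (GRCm38.p6), read along that gene. Capitals mark CCGGAAG (an ETS-family motif), GGGCGG (the GC box), CCAAT (the CCAAT box), ATGGCGG (a YY1 motif) and TGACGTC (from the cAMP response element) on either strand, and overlapping matches run together.
Bud31 (Pdap1-Bud31), chr5:145140126-145140425, plus strand: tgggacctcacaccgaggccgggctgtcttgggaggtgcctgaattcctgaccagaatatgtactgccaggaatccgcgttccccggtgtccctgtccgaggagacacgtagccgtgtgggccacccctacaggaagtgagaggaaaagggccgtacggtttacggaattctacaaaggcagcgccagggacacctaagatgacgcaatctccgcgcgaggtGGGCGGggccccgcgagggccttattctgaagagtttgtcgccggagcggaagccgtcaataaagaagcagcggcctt
Myl12a (Myl12a-Myom1), chr17:71002484-71002783, minus strand: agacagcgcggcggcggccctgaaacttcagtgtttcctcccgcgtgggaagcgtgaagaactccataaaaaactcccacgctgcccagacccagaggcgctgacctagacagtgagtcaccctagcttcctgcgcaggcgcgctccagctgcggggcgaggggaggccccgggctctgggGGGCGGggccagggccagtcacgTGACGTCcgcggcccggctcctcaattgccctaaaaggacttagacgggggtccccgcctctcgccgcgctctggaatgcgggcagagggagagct
Hadhb (Hadha-Hadhb), chr5:30155003-30155302, plus strand: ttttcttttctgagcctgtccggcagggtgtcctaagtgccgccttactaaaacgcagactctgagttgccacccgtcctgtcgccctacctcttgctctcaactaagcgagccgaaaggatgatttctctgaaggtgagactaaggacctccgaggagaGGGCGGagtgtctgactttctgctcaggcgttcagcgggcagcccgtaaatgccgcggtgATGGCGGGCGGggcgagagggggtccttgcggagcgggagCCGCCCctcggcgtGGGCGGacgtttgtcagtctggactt
Selenof (Hs2st1-Selenof), chr3:144570177-144570476, plus strand: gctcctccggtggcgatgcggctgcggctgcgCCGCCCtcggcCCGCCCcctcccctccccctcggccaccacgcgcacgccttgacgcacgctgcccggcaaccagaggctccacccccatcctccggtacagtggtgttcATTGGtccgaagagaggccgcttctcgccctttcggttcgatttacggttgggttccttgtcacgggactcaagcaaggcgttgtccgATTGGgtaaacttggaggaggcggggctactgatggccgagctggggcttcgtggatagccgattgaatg
Nsun2 (Srd5a1-Nsun2), chr13:69611766-69612065, plus strand: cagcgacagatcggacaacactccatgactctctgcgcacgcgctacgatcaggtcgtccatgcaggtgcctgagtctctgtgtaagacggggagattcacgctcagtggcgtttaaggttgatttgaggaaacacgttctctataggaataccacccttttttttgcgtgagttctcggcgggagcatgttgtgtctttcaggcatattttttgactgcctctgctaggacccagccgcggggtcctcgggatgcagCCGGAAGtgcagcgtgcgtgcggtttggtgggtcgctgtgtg
Ube3b (Kctd10-Ube3b), chr5:114380370-114380669, plus strand: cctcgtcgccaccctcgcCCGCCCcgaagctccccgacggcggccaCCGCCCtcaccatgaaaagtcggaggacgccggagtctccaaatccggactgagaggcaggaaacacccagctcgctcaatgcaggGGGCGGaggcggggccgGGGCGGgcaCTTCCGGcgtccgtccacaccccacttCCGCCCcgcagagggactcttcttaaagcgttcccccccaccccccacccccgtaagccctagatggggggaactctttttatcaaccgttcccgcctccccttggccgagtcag
Hnrnpa2b1 (Hnrnpa2b1-Cbx3), chr6:51469845-51470144, minus strand: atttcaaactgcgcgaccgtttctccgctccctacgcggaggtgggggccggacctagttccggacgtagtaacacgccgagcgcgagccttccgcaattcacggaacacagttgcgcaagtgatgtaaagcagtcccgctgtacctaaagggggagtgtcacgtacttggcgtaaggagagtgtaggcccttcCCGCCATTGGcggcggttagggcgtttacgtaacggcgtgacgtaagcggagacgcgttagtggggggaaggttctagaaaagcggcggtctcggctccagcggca

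In the Selenof sequence the start of Hs2st1 lies at position 40, and in the Ube3b sequence the outermost starts of Kctd10 and Ube3b lie at positions 136 and 148, so 1 stretch holds the starts of both genes. The stretches had 55.3% to 68.0% GC and 22 to 34 CpG dinucleotides. None of the 7 held TATAAA, and the GC box was found in 5 of them. In the Hnrnpa2b1 sequence the outermost start of the gene lies at position 97, before the YY1 motif and the CCAAT box, which overlap. In the Hadhb sequence the YY1 motif overlaps a GC box.

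Over all paired genes with an entry in the promoter table (1227 of 1443, 85.0%), the same letters were counted on both strands of the 300 bp. CCGGAAG was found in 27.9% of paired promoters against 12.3% of all promoters, ATGGCGG in 12.9% against 5.51%, and GCGCATG (from the NRF1 motif) in 8.56% against 4.93%. TGACGTC was found in 6.60% against 4.07% and GGGCGG in 65.5% against 47.3%. TATAAA was less frequent, at 5.71% against 13.5%. Median GC content was 61.7% and the median ratio of observed to expected CpG was 0.84, against 56.7% and 0.60 in all promoters. Many of these sequences overlap that of the partner, so the same letters can be counted once for each gene, and these shares were not tested.

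Promoters of pairs with and without a peak in any sample were set side by side in the same way. CCAAT was found in 36.1% of promoters of pairs with a peak and in 52.9% of the others. ATGGCGG was found in 17.6% and 9.09%, and CCGGAAG in 29.5% and 26.5%. The same contrast among lone genes was 33.6% and 39.8% for CCAAT, 10.4% and 3.63% for ATGGCGG, and 19.4% and 9.05% for CCGGAAG. CpG-rich promoters, with an observed to expected CpG of at least 0.6 and at least 55% GC, made up 78.7% and 67.0% of the promoters of pairs with and without a peak. Among lone genes they made up 76.2% and 31.9%, a larger contrast than at pairs.

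The first comparison asked how many pairs carried H3K36ac in each genotype. A peak overlapped the region of 216, 157 and 196 of the 726 pairs in the Sirt7-/- samples, or 29.8%, 21.6% and 27%. In the WT samples it was 77, 9 and 24 pairs, or 10.6%, 1.24% and 3.31%. Every Sirt7-/- sample was above every WT sample. Lone starts with a peak were 12.7%, 9.41% and 11.3% in Sirt7-/- and 4.18%, 0.266% and 1.29% in WT. The means were 189.7 pairs (SD 30.01, n = 3) for Sirt7-/- against 36.7 pairs (SD 35.7, n = 3) for WT, a ratio of 5.17. A two-sided exact permutation test gave p = 0.1, below which 3 samples against 3 cannot go.

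This ratio moved with the length of the lists. When each list was limited to its 64 best peaks by -log10 q, 3, 9 and 4 pairs were called in Sirt7-/- and 9, 9 and 11 in WT, a ratio of 0.55 (exact permutation test, two-sided, p = 0.3). Without WT replicate 2, the longest WT list, the ratio was 11.5. Peaks at pairs made up 7.61%, 7.63% and 7.45% of the Sirt7-/- lists and 8.50%, 14.1% and 7.82% of the WT lists, where the highest share belonged to WT replicate 3, with 9 such peaks.

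**Figure D1:**
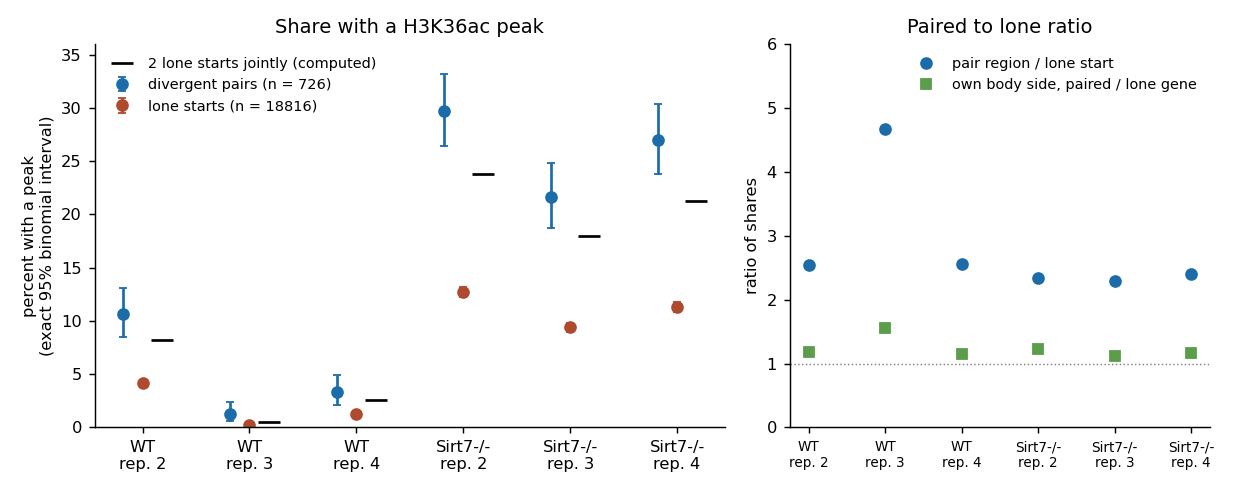
Left, percent of the 726 pair regions and of the 18816 lone starts with a H3K36ac peak in each sample (points, with exact 95% binomial intervals for counting error), and the percent computed for 2 lone starts jointly (dashes). Right, the ratio of the shares for whole regions (circles, 2.30 to 4.67) and for each gene's own body side (squares, 1.12 to 1.55), all above 1.

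Pairs were called more often than lone starts in all 6 samples. The share of pairs was 2.35, 2.30 and 2.39 times that of lone starts in Sirt7-/- and 2.54, 4.67 and 2.56 times in WT. The mean ratio was 2.80 ± 0.92 (SD, n = 6; exact sign-flip permutation test over samples, two-sided, p = 0.031, the smallest that 6 samples allow, and 0.14 after Benjamini-Hochberg adjustment over 9 tests, of which none was lower). A pair region holds the starts of 2 genes, and 2 lone starts taken as independent would have been called in 23.8%, 17.9% and 21.3% of cases in Sirt7-/- and in 8.19%, 0.531% and 2.57% in WT, below the share of pairs in each.

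Counted gene by gene with each paired gene's own start plus 3000 bp on each side, the mean ratio was still 2.80. That region also holds the start of the partner. Counted by each gene's own body side, the difference was smaller. A peak with its midpoint in the first 3000 bp of the gene's own body was called in 13.0%, 8.73% and 11.0% of paired genes in Sirt7-/-, against 10.6%, 7.82% and 9.47% of lone genes. In WT the shares were 4.23%, 0.347% and 1.32% of paired genes against 3.57%, 0.223% and 1.14% of lone genes. The mean ratio was then 1.23 ± 0.16 (SD, n = 6), again above 1 in 6 of 6 samples (exact sign-flip test, two-sided, p = 0.031, unadjusted). This count was chosen after the data were seen and is not among the adjusted tests. Among CpG-rich promoters alone, 422 pairs against 6144 lone starts, the ratio for whole regions was 1.34, 1.31 and 1.4 in Sirt7-/- and 1.42, 2.53 and 1.26 in WT, with a mean of 1.54. These pairs were called in 32.9%, 23.9% and 29.6% of cases in Sirt7-/- and in 12.1%, 0.948% and 3.32% in WT. For 2 CpG-rich lone starts taken as independent the shares were 43.1%, 33.2% and 37.7% in Sirt7-/- and 16.3%, 0.747% and 5.20% in WT, above the pairs in every sample but WT replicate 3. Counted by each gene's own body side, CpG-rich paired genes were called less often than CpG-rich lone genes, at a ratio of 0.70, 0.63 and 0.69 in Sirt7-/- and 0.66, 0.77 and 0.56 in WT (mean 0.67, below 1 in 6 of 6 samples, exact sign-flip test, two-sided, p = 0.031, unadjusted). This comparison too was chosen after the data were seen. A midpoint places 1 peak over both starts in at most 1 of the 2 genes, and a peak centred between the starts in neither. This way of counting can lower the share of paired genes, and its part in the result was not tested. The direction of the difference by own body side thus depended on the promoters compared.

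The ratio of pairs to lone starts was not shown to differ between the genotypes. It was 0.41 lower in Sirt7-/- on the log2 scale (a difference of -0.41, exact permutation test, two-sided, p = 0.1), and the difference was -0.12 without WT replicate 3, where the ratio rests on 9 pairs.

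Of the 726 pairs, 319 (43.9%) were called in at least 1 sample, against 19.0% of lone starts, and 407 in none. At least 1 Sirt7-/- sample called 311 pairs (42.8%, against 18.6% of lone starts) and at least 1 WT sample called 94 (12.9%, against 4.85%). Of the 94 pairs called in WT, 86 were also called in Sirt7-/-, which is 91.5% of the WT and 27.7% of the Sirt7-/- pairs. Among lone starts the shared part was similar, at 90.6% of those called in WT and 23.7% of those called in Sirt7-/-. The other 8 pairs (1.1%, against 0.457% of lone starts) were called in WT replicate 2 and in no other sample. All 3 Sirt7-/- samples called 86 pairs (11.8%, against 4.9% of lone starts).

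A set of 225 pairs was called in at least 1 Sirt7-/- and no WT samples (31.0%, against 14.2% of lone starts). Among them 36 were called in every Sirt7-/- sample (4.96%, against 2.41% of lone starts). Among regions called in all 3 Sirt7-/- samples, those without a WT peak were 36 of 86 pairs (41.9%) and 453 of 922 lone starts (49.1%). The count of 36 depends on the WT lists, and without WT replicate 2 it was 68. It was 73 without Sirt7-/- replicate 3, the shortest Sirt7-/- list, and 55 without Sirt7-/- replicate 4.

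Only 2 pairs were called in all 6 samples (0.275%, against 0.085% of lone starts). The first was Pdap1-Bud31 (starts at chr5:145140025-145140376, 351 bp apart), where Bud31 encodes a spliceosome component and Pdap1 a casein kinase substrate. Its peak was 516, 325 and 252 bp wide in WT and 715, 524 and 767 bp wide in Sirt7-/-. The midpoint lay between the starts in 5 of the samples and 60 bp inside Bud31 in Sirt7-/- replicate 4. Its rank by -log10 q was high in every list, at the 83.5th to the 99.3rd percentile, and the Bud31 start lay inside the peak in all 6.

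The second was Myl12a-Myom1 (chr17:71002533-71003332, 799 bp apart). Myl12a encodes a regulatory light chain of non-muscle myosin, and Myom1 encodes myomesin, a protein of the muscle sarcomere. All 6 peaks had their midpoint on the Myl12a side, 250 to 572 bp inside the gene, and none reached the Myom1 start. It is the widest spaced of the 10 pairs called most often.

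A further 8 pairs were called in 5 samples. Hadha-Hadhb (chr5:30154980-30155253), which encode both subunits of the mitochondrial trifunctional protein of fatty acid oxidation, carried peaks at the 91.4th to the 99.8th percentile of their lists, over both starts in the 3 Sirt7-/- samples and centred between them in WT replicates 3 and 4. Hs2st1-Selenof, a heparan sulfate sulfotransferase and a selenoprotein, had peaks centred in Selenof in 3 samples and between the starts in the other 2. Slc39a7-Rxrb, a zinc transporter and a retinoid X receptor, had its peak in Rxrb in all 5, with midpoints 198.5 to 311 bp inside the gene. Btf3l4-Txndc12 had its peak in Btf3l4 in all 5, 464 to 858 bp inside.

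Cep76-Psmg2, a centrosomal protein and a proteasome assembly chaperone, was marked between the starts in 4 of its 5 samples. Tada3-Arpc4, which pairs a subunit of histone acetyltransferase complexes with a subunit of the actin-nucleating complex, had a peak over both starts in 4 of 5. Alyref-Anapc11, an mRNA export factor and a subunit of the anaphase-promoting complex, and Gtf2e1-Rabl3, whose first gene encodes a subunit of a general transcription factor, changed sides. The Alyref peak lay in the minus-strand gene in 4 samples and 28.5 bp inside Anapc11 in Sirt7-/- replicate 4, and that of Gtf2e1-Rabl3 lay 13.5 bp inside Rabl3 in Sirt7-/- replicate 3.

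**Figure D2:**
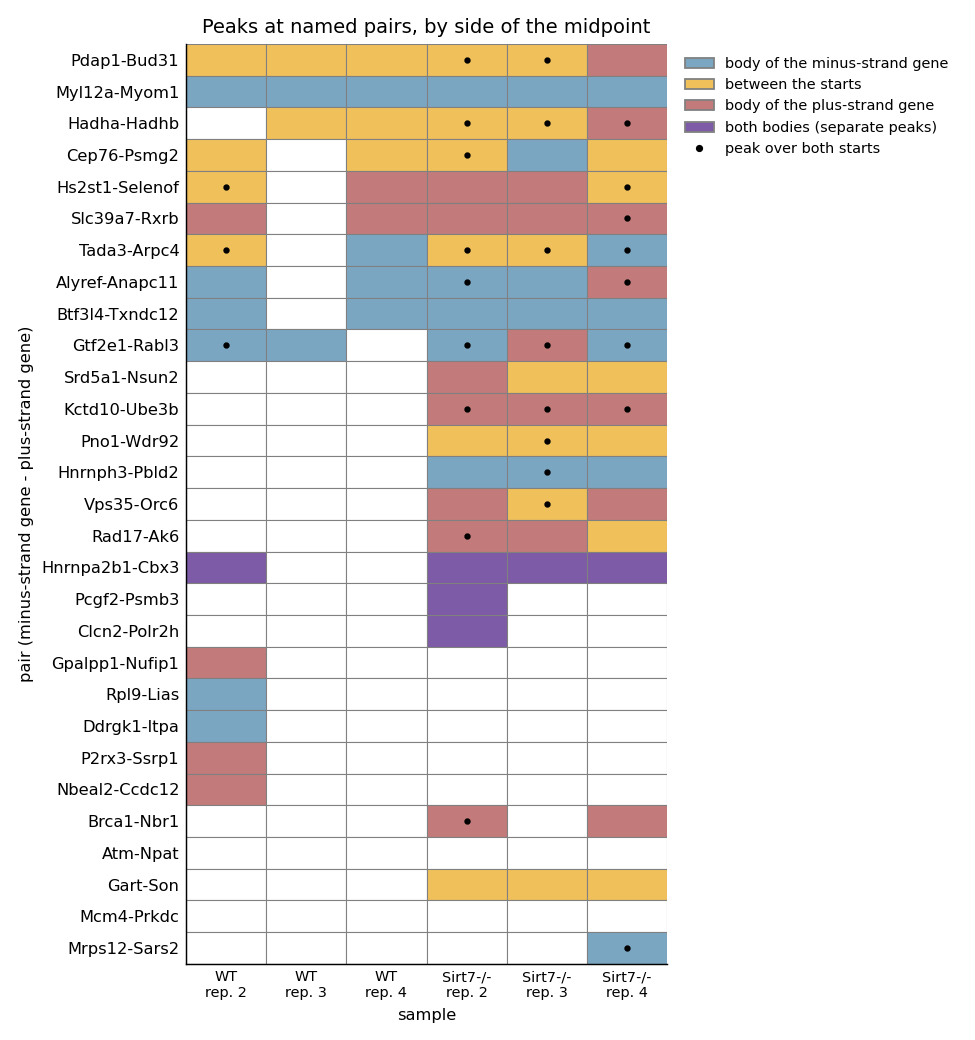
Each row is a named pair and each column a sample. Colour gives the side on which the peak midpoint lay, white means no peak, and a dot marks a peak over both starts. Pdap1-Bud31 and Myl12a-Myom1 were called in all 6 samples, and Hnrnpa2b1-Cbx3 had separate peaks in both bodies in each of its 4.

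The 36 pairs called in every Sirt7-/- but no WT sample were led, by percentile within the lists, by Srd5a1-Nsun2, Kctd10-Ube3b, Pno1-Wdr92, Hnrnph3-Pbld2, Vps35-Orc6 and Rad17-Ak6. At Srd5a1-Nsun2 (chr13:69611485-69612016, 531 bp apart) all 3 peaks covered the start of Nsun2, an RNA methyltransferase, and none that of Srd5a1, a steroid reductase. At Kctd10-Ube3b (chr5:114380505-114380517, 12 bp apart) the 3 peaks, 853 to 1044 bp wide, covered both starts and were centred 56.5 to 189 bp inside Ube3b, a ubiquitin ligase. At Hnrnph3-Pbld2 all 3 were centred in Hnrnph3, a splicing regulator, 160.5 to 623.5 bp inside.

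At Vps35-Orc6 all 3 peaks covered the start of Orc6, a subunit of the origin recognition complex, and at Rad17-Ak6 all 3 covered that of Ak6, an adenylate kinase, and 1 also that of Rad17, a checkpoint clamp loader. Taf9 has the same start as Ak6, so these peaks belong equally to Rad17-Taf9, which was counted as a separate pair with the same calls. At Pno1-Wdr92, whose first gene acts in ribosome assembly, all 3 midpoints lay between the starts. These pairs were chosen because they were called in 3 of 3 Sirt7-/- and 0 of 3 WT samples, so a test of them could show nothing further.

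The pairs called in WT replicate 2 only included Gpalpp1-Nufip1, Rpl9-Lias, Ddrgk1-Itpa, P2rx3-Ssrp1 and Nbeal2-Ccdc12. The peak of Gpalpp1-Nufip1 was at the 93.8th percentile of that list and those of the other 4 at the 47.4th to the 57.3rd.

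The next question was where within a pair the mark lay. Counted by sample and pair, 685 peaks lay at pairs over the 6 lists, of which 267 had their midpoint in the minus-strand gene, 295 in the plus-strand gene and 123 between the starts. The shares between the starts were 13.7%, 20.3% and 18.3% in Sirt7-/- and 21.8%, 44.4% and 16.7% in WT, so the groups overlapped. The difference, Sirt7-/- minus WT, was -10.2 percentage points (exact permutation test, two-sided, p = 0.4), and -1.82 without WT replicate 3, whose share is 4 of 9 peaks.

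The minus and the plus strand were marked about as often. Of the peaks centred in a gene body, the plus-strand gene held 52.4%, 53.2% and 52.2% in Sirt7-/- and 50.8%, 40% and 60% in WT. All 6 exact 95% binomial intervals, which cover counting error only, include 50%, the narrowest being 45.0% to 59.7% in Sirt7-/- replicate 2. The means differed by 2.30 percentage points between the genotypes, Sirt7-/- minus WT (exact permutation test, two-sided, p = 0.7), and by -2.83 without WT replicate 3. In the 212 pairs whose peaks all lay in 1 body, the marked gene was the longer of the 2 in 105 (49.5%, exact 95% binomial interval 42.6% to 56.5%).

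A single peak often took in both starts. Of the 685 peaks, 240 (35.0%) covered both starts, 42 the minus start only, 53 the plus start only, and 350 (51.1%) neither. The share over both starts was 37%, 38% and 38.1% in the Sirt7-/- samples and 30.8% in WT replicate 2. It was 0 of 9 peaks in WT replicate 3, which allows a share of up to 33.3%, and 0 of 24 in WT replicate 4, which allows up to 12.5%. Peaks at pairs were also wider in Sirt7-/-, with medians of 563.5, 506 and 580 bp against 372, 244 and 325 bp in WT, and the part of width in this share was not tested. At lone starts the start itself lay inside 24.2% to 28.5% of peaks in Sirt7-/- and 10% to 21.7% in WT.

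**Figure D3:**
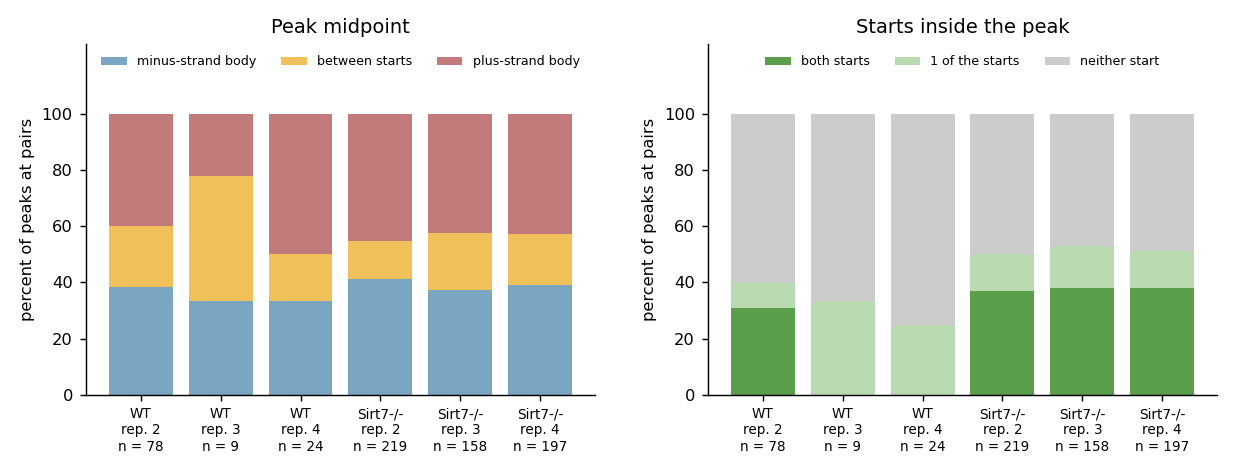
Percent of peaks at pairs in each sample by the place of the midpoint (left) and by the starts inside the peak (right), with the number of peaks under each bar. Minus-strand and plus-strand bodies have like shares, and 37% to 38.1% of Sirt7-/- peaks hold both starts.

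Separate peaks in both bodies were rare. Pairs with a midpoint on each side numbered 3, 1 and 1 in Sirt7-/- and 1, 0 and 0 in WT, which came from 3 pairs in all. The share among called pairs was 0.38 percentage points above that of called lone starts with a midpoint both upstream and downstream (mean over 6 samples; exact sign-flip test, two-sided, p = 0.25).

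Hnrnpa2b1-Cbx3 (chr6:51470048-51470154, 106 bp apart) gave 4 of these 6 cases. It pairs a splicing factor with the heterochromatin protein HP1 gamma, and its human counterpart is the textbook ubiquitous chromatin opening element, a CpG island that keeps transgenes active. In WT replicate 2 and in the 3 Sirt7-/- replicates, 1 peak was centred 479.5 to 929 bp inside Hnrnpa2b1 and another 821 to 928.5 bp inside Cbx3, and none of the 8 peaks reached a start. The other cases, Pcgf2-Psmb3 and Clcn2-Polr2h, were seen in Sirt7-/- replicate 2 only, and the minus-side peak of Pcgf2-Psmb3 was centred 3058 bp from the start.

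Over the profile of called pairs in the Sirt7-/- samples and WT replicate 2, coverage formed a plateau across both starts in place of the single peak of lone starts. The profile adds up pairs marked in the minus-strand gene and pairs marked in the plus-strand gene. The plateau therefore need not be the shape at any single pair. At the middle between the starts a peak covered 44.4%, 49.7% and 46.9% of called pairs in Sirt7-/-, and 250 bp into the plus-strand side of replicate 2 it covered 55.1%. At called lone starts the start itself was covered in 28.7%, 27.4% and 24.5%, and the point 300 bp downstream in 62.2%, 58.8% and 60%. At 300 bp upstream it was 18.3%, 16.6% and 17.1% for lone starts. At 300 bp to the left of the middle of pairs, which is the side of the minus-strand gene, it was 47.2%, 41.4% and 48.5%. In WT replicate 2 the pairs were covered in 44.2% at 300 bp to the left, 45.5% at the middle and 42.9% at 300 bp to the right. In WT replicate 4, with 24 pairs, these were 16.7%, 20.8% and 41.7%, highest on the plus-strand side, and in WT replicate 3, with 9 pairs, 11.1%, 44.4% and 33.3%. Of the bases covered within 1500 bp of a start, 55.6% to 57.2% lay upstream of paired starts in Sirt7-/- and 56.6% to 67.9% in WT, against 21.2% to 22.3% and 14.3% to 20.5% at lone starts. The difference was 39.1 ± 5.7 percentage points (SD, n = 6; exact sign-flip test, two-sided, p = 0.031, adjusted 0.14). A base upstream of 1 paired start is mostly downstream of the other, so a value near 50% follows from counting each pair from both of its starts.

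**Figure D4:**
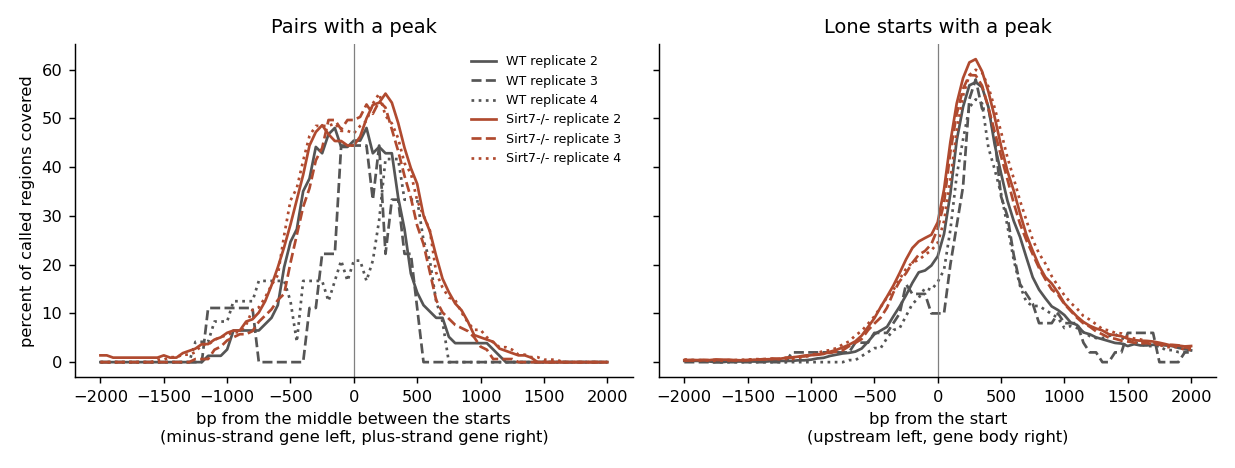
Percent of called pairs (left) and of called lone starts (right) covered by a peak at each distance, for the 6 samples. Pairs have a plateau over both sides in Sirt7-/- (44.4% to 49.7% at the middle) and WT replicate 2 (45.5%), and lone starts 1 maximum 250 to 300 bp into the gene, while WT replicate 4 has its maximum for pairs on the plus-strand side and WT replicate 3 near the middle, on 24 and 9 pairs.

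Peaks centred in a gene body lay closer to the start at pairs, with median distances of 264.5, 221.5 and 280.5 bp in Sirt7-/- and 244.5, 239.5 and 322.5 bp in WT. At lone starts the median distance of midpoints downstream was 369.75 to 403.25 bp. Median widths at pairs were compared with those at lone starts, which were 483.5, 450.5 and 465 bp in Sirt7-/- and 378, 288 and 297.5 bp in WT. Pairs were wider in the 3 Sirt7-/- samples and in WT replicate 4 and narrower in WT replicates 2 and 3, with a mean difference of 38 ± 57.9 bp (SD, n = 6; exact sign-flip test, two-sided, p = 0.19).

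The side was often not fixed between samples. Of 187 pairs called in at least 2 samples, 112 had midpoints of 1 class throughout, 59 of them in the plus-strand gene, 43 in the minus-strand gene and 10 between the starts. In 31 pairs the midpoint lay in opposite bodies, in 1 of them (Hnrnpa2b1-Cbx3) within the same sample. A peak covered both starts in at least 1 sample in 29 of the 31, and in 114 of all 187. The median spacing of these 31 pairs was 64 bp, against 146 bp for the other pairs called in at least 2 samples. Where a peak covers 2 close starts, a small shift of its midpoint changes the side, so both values are favoured by the way sides were counted.

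The distance between the starts was not shown to differ between pairs with and without a peak. Its median was 98.5, 106 and 107 bp in called pairs of Sirt7-/-, against 101.5, 100 and 99 bp in the uncalled, and 84, 273 and 102.5 bp in WT, against 101 to 102 bp. The mean difference was 27.8 bp (exact sign-flip test, two-sided, p = 0.59) and turned to -1.1 bp without WT replicate 3. By class of spacing, the mean share of pairs called in Sirt7-/- was 27.3% ± 5.3 at 1 to 50 bp, 23.6% ± 4.1 at 51 to 100 bp, 23.9% ± 5.3 at 101 to 200 bp, 30.8% ± 1.4 at 201 to 500 bp and 24.1% ± 4.9 at 501 to 1000 bp (SD, n = 3). The share of peaks over both starts was 42.6% in the closest class and 5.45%, 3 of 55, in the widest, and the share with a midpoint between the starts was 4.79% and 36.4%. These shares pool the peaks of all samples. Median widths of peaks at pairs were 244 to 580 bp, so a peak spans close starts more readily than starts 501 to 1000 bp apart. A wider gap also holds more midpoints, so the spacing itself favours both trends.

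**Figure D5:**
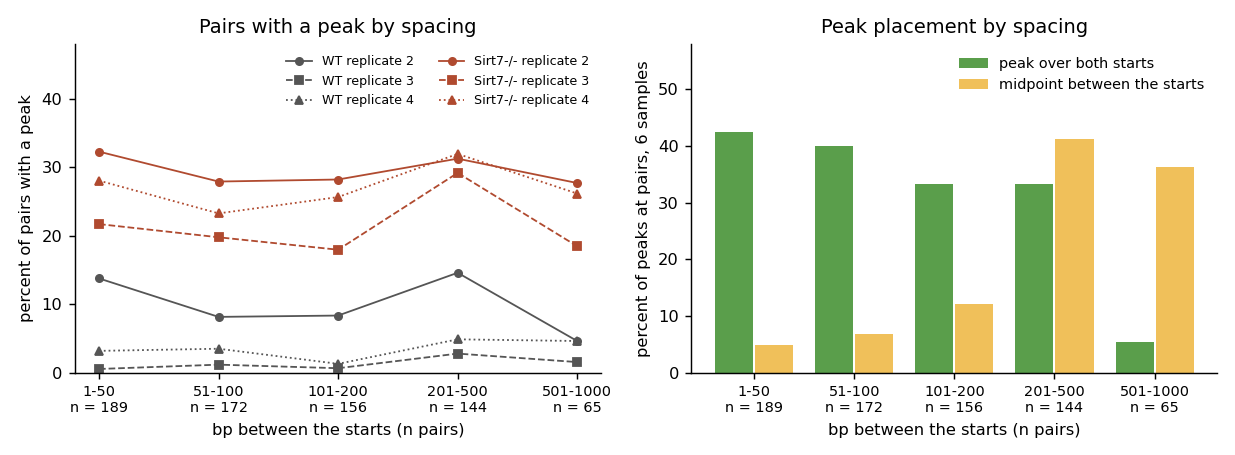
Left, percent of pairs with a peak by distance between the starts, for each sample. Right, percent of the peaks at pairs that cover both starts and that have their midpoint between them, over the 6 samples. The share called shows no steady order with spacing, while peaks over both starts fall from 42.6% to 5.45%, a fall that the wider gap itself favours.

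The pairs were then read by function, with lists of genes of which at least 1 was a member of the pair. Over all pairs 42.8% had a peak in at least 1 Sirt7-/- sample. Of 33 pairs with a splicing or RNA-binding gene, 21 had one (63.6%), 8 in all 3 Sirt7-/- samples and 9 in a WT sample. Besides Pdap1-Bud31 and Hnrnpa2b1-Cbx3 they included Sdhaf2-Cpsf7, a succinate dehydrogenase assembly factor and a subunit of a cleavage factor of pre-mRNA, called in 4 samples. Of 7 pairs with an aminoacyl-tRNA synthetase, 5 were called, among them Lyrm4-Fars2 and S100pbp-Yars in 4 samples each and Ears2-Ubfd1, with starts 1 bp apart, in the 3 Sirt7-/- samples.

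Of 37 pairs of the respiratory chain and mitochondrial import 20 were called (54.1%), including Ndufa4-Phf14 and Uqcrh-Lrrc41, in 4 samples each. Of 20 pairs of the mitochondrial ribosome 9 were called (45.0%), led by Mrps18b-Ppp1r10 and Mrpl13-Mtbp with 4 samples each. Of 14 with a cytosolic ribosomal protein 8 were called, led by Zwilch-Rpl4, of 17 with a chaperone 8, led by Cct5-Atpsckmt, and of 18 with a Zfp zinc finger gene 11, led by Septin1-Zfp553 and Zfp668-Zfp646. Of 32 pairs with a ubiquitin or proteasome gene 14 were called (43.8%), and of 50 with a gene of DNA replication and repair 20 (40.0%), among them Rbks-Babam2 in 4 samples.

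At the low end stood the replication-dependent histone genes, with 1 of 13 pairs called, H2ac22-H2bc22 in Sirt7-/- replicate 4. The copies of these genes are nearly identical and the authors kept only reads with a unique place, so their calls are uncertain. None of the 5 pairs with a germ cell or meiosis gene and neither of the 2 with a gene of a tissue-restricted family had a peak in any sample. These counts are small, the lists share pairs, and no list was tested against the others.

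Of the textbook head-to-head pairs looked up, 6 met the rule. Hspd1-Hspe1, Surf1-Surf2, Ppat-Paics, Col4a1-Col4a2 and Col4a3-Col4a4 did not, so the rule misses some known pairs. Gart-Son, a purine synthesis enzyme and a splicing factor 852 bp apart, was called in the 3 Sirt7-/- samples, each time between the starts and over that of Son. Brca1-Nbr1, a recombination repair gene and an autophagy receptor, was called in Sirt7-/- replicates 2 and 4, with the midpoint 315 and 529.5 bp inside Nbr1. Mrps12-Sars2, both of mitochondrial translation, was called in Sirt7-/- replicate 4 only, and Pdap1-Bud31 in all 6. Atm-Npat and Mcm4-Prkdc, with starts 61 and 44 bp apart, were called in none.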

How the data were processed

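H3K36ac ChIP-seq peaks of 3 WT and 3 Sirt7-/- samples were used, and the 6 inputs entered only through peak calling. The authors trimmed reads (Trim Galore 0.6.6), aligned them to mm10 (Bowtie2 2.4.4.1), kept those with a mapping quality of at least 30 (SAMtools 1.19.2) and called broad peaks per sample (MACS2 2.2.5, broad cutoff 0.1). The deposited columns hold the authors' score (not used), the fold over input as a ratio (not used in a test), and -log10 p and -log10 q, used to rank peaks within a list. The lists hold no read depth, and the read numbers that the study states, from before duplicates were removed, were not used here. How precise any 1 peak is remains unknown.

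Gene positions came from RefSeq GRCm38.p6, 1 outermost start per gene. Strand came from the RefSeq promoter table (16457 genes) or from GENCODE vM39 by symbol or synonym (3775 and 27), and 406 autosomal genes without one were left out. Another 415 head-to-head pairs whose annotated starts overlap did not meet the rule. A peak counted if it overlapped a region by 1 bp. Promoter sequences and composition used the table entry nearest the start, at any distance for shares and within 200 bp for those printed. Exact tests (permutation of 3 against 3, or sign flips over 6 samples) were two-sided, and adjustment was over 9 tests. The named pairs are the 10 called in most samples, the first 6 called in every Sirt7-/- but no WT sample, those with peaks in both bodies, 5 of those called in more WT samples, the textbook pairs and up to 3 per list. Pairs, lists and tests were chosen with earlier results of these data known. Placement and tests were tested on simulated data. Python 3.11.15, NumPy 2.4.6, pandas 2.3.3, SciPy 1.17.1 and matplotlib 3.10.9 were used.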

Additional observations from a re-analysis of the deposited data

How the results depend on the processing

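With 3 samples per genotype and no read depth in the lists, the presence of a peak at a pair depends on how many peaks a sample had. The ratio of pairs to lone starts and the difference in upstream share kept their direction and an exact p of 0.031 in 12 of 13 and 9 of 9 alternatives with all 6 samples, the exception being the own body side of CpG-rich promoters. Both directions were favoured by the counts, since a pair region holds the starts of both genes and each pair was counted from both. Keeping them therefore shows no difference per gene. With CpG-rich promoters the ratio was 1.54, yet pairs were called less often than 2 lone starts taken as independent, except in WT replicate 3. Tests between the genotypes could not pass under any setting, so they bear on direction only. With the 64 best peaks per list the ratio of pairs called fell to 0.55, the difference in median width between pairs and lone starts to -30.25 bp, the excess of regions with peaks on both sides to 0 percentage points and the count of pairs called in every Sirt7-/- but no WT sample to 0. With peaks at least 500 bp wide 8 results could not be computed because WT replicate 3 then had no peak at a pair. With starts within 500 bp the plus-side share was lower in Sirt7-/- (-3.08 percentage points). With CpG-rich promoters 19 of the 422 such pairs were called in every Sirt7-/- but no WT sample, against 36 of all 726 pairs. The cause of these changes was not tested.

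With 1 sample left out, the smallest p of the sign-flip tests is 0.0625, so no call could pass. The ratio of pairs to lone starts was then 2.43 to 2.90 and the difference in upstream share 37.5 to 40.3 percentage points. The count of pairs called in every Sirt7-/- but no WT sample was 39 to 73, the ratio of pairs called by genotype 3.76 to 11.5, the difference in plus-side share -2.83 to 7.17 percentage points, the difference in spacing -1.1 to 36.9 bp.

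Replicate numbers are shared between the genotypes, and neither the labels nor the study say whether they mark a common litter or batch. The deviations of same-numbered samples correlated at -0.07 to 0.02. With the replicate block the ratio of pairs called was 7.37 (exact test, p = 0.25, the smallest that 3 blocks allow). The paired difference in the log2 ratio of pairs to lone starts was -0.41 (exact p = 0.25), in the share between the starts -10.2 percentage points (exact p = 0.5) and in the plus-side share 2.30 percentage points (exact p = 0.75).

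3 alternatives were chosen after the data were seen. With peaks on each gene's own body side the ratio of paired to lone genes was 1.23, and without the 826 lone genes that overlap another gene head to head it was 3.02 for whole regions. With the own body side and CpG-rich promoters alone the ratio was 0.67 (exact sign-flip test, p = 0.031), and the difference between the genotypes in its log2 was 0.033 (exact p = 0.8). The cause was not tested.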
